A study of Mus musculus with 2 samples.

Results

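Mid-range chromatin loops that join one gene end to DNA with no protein-coding gene end were examined in mouse cerebral cortex after experimental stroke. A loop belonged to this class when its anchors lay 100 to 1000 kb apart on an autosome and exactly 1 anchor, widened by 2.5 kb on each side, held the start or end of a protein-coding gene. The opposite anchor, called the distal anchor here, held none, though it could lie inside a gene body. The class had 8212 members among 30371 loops in all, 4571 of 15592 in the MCAO list and 3641 of 14779 in the Sham list. Hi-C, which ligates and sequences DNA segments that lie close together in the nucleus, had been run on frozen cortex of the ischemic territory on the operated side. MCAO mice had the middle cerebral artery closed by an intraluminal filament for 1 h and were killed after 6 h of reperfusion. Sham mice underwent the same operation without advance of the filament or occlusion and were killed after 6 h of recovery. Both groups were under isoflurane. The labels mention 3 cortices per group and do not give strain, sex or age, and 1 loop list per group was analysed. The differences below were therefore not checked against replicates or tested between conditions. Hi-C measures contacts and not RNA, so the tissue label could not be checked against marker genes, and a change in the cells present cannot be told apart from a change within cells.

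Loops are thought to form when cohesin extrudes DNA until it is halted, often at sites bound by the insulator protein CTCF, or when active elements gather. A contact between a promoter and a distant enhancer can bring regulatory proteins to the gene, and enhancers often lie within introns of other genes or in the deserts between genes. In the cortex, long genes for synaptic and adhesion proteins and isolated genes for transcription factors are known for wide regulatory surroundings. A loop call alone does not show that the distal anchor is an enhancer.

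Promoter sequences of 4 genes are printed because their loops carry the examples that follow, and they were chosen after the values were seen. Plk2 had among the most loops, Sema6d and Hs3st3b1 had members in the MCAO list alone, and B3galt2 had the largest excess in Sham. Each run covers 250 bases before to 50 after the gene start in RefSeq GRCm38.p6, 5′ to 3′ on the gene's strand, with motif matches in capitals. The Plk2 promoter lies at chr13:110394794-110395093 on the plus strand, that of Sema6d at chr2:124089719-124090018 on the plus strand, that of Hs3st3b1 at chr11:63922235-63922534 on the minus strand and that of B3galt2 at chr1:143640447-143640746 on the plus strand.
Plk2: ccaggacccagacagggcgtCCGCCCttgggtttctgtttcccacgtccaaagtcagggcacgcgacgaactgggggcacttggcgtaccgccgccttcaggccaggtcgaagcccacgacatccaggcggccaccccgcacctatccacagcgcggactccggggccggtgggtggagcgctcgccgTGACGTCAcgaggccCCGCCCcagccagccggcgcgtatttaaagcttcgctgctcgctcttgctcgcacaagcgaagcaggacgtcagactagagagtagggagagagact
Sema6d: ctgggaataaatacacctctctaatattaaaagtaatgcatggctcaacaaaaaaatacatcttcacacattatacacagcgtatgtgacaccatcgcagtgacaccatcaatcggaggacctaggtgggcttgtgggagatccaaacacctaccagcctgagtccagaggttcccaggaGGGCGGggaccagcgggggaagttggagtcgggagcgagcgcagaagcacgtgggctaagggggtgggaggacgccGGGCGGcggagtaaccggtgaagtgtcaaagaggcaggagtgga
Hs3st3b1: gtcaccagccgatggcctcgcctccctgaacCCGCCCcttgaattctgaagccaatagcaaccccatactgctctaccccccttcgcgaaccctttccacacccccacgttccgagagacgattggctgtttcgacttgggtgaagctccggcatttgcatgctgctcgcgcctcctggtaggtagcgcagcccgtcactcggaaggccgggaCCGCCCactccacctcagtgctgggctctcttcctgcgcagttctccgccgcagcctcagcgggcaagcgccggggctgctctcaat
B3galt2: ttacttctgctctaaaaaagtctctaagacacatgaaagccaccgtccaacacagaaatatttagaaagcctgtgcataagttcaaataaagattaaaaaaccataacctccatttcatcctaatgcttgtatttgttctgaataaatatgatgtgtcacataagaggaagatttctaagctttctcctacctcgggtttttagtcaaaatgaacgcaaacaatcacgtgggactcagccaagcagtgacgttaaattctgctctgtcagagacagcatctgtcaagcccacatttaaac

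The motifs searched on both strands were the cyclic AMP response element TGACGTCA, the AP-1 site TGANTCA, the GC box GGGCGG and a CTCF core motif, and these do not share letters in the runs above. The Plk2 promoter held 1 cyclic AMP response element and 2 GC boxes, those of Sema6d and Hs3st3b1 held 2 GC boxes each, and that of B3galt2 held no match. Among the 16457 autosomal promoters of the table, 47.3% held a GC box, 7.12% an AP-1 site, 2.40% a cyclic AMP response element and 0.559% the CTCF motif. Among the 3277 promoters whose gene start lay in a gene-end anchor of either list, the shares were 57.6%, 5.34%, 2.81% and 0.915%. These promoters also had a median GC content of 60%, against 56.7% for all promoters in the table. In the MCAO list 58.8% of 2236 such promoters held a GC box, against 57.2% of 1847 in the Sham list. A match describes letters and not a bound site.

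The distal anchors also held 72 miRNA genes, in 39 MCAO and 29 Sham loops, of which 10 genes lay in distal anchors of both lists. Mature sequences of 7 are printed, chosen after the values were seen, because their genes are the distal ends of the loops described next. Capitals mark the seed, bases 2 to 8, which pairs with target RNAs, and no 2 of these sequences share a seed.
mmu-miR-499-5p: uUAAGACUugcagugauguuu
mmu-miR-675-5p: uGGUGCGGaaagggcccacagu
mmu-miR-1899: aGCGAUGGccgaaucugcuucc
mmu-miR-137-3p: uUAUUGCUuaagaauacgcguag
mmu-miR-134-5p: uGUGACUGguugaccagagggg
mmu-miR-410-3p: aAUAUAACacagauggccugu
mmu-miR-28a-5p: aAGGAGCUcacagucuauugag

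Mir499, which lies in the myosin gene Myh7b, stood in a distal anchor joined to Ggt7 and Acss2 by 31 paired-end tags (PETs, read pairs joining both anchors) in MCAO and 21 in Sham. Mir675, made from the imprinted H19 RNA, was joined to Ifitm10 by 17 PETs in MCAO and 19 in Sham. In Sham the gene-end anchor also held Gm10013, Krtap5-1 and Krtap5-4, so that contact cannot be assigned to Ifitm10 alone. Mir1899 was joined over 441 kb to the calcium-permeable channel gene Trpc6 by 45 PETs in MCAO, and over 455 kb by 31 PETs in Sham. These 3 contacts were present in both lists with like numbers of PETs. A 317 kb loop of 13 PETs joined the imprinted gene Dlk1 to a region holding Mir134, Mir382 and Mir410 in the MCAO list alone. Mir28a, inside Lpp, was joined over 826 kb to Bcl6, a transcriptional repressor gene, by 40 PETs in the MCAO list alone. Mir137, known for roles in neurons, was joined over 598 kb to the sorting nexin gene Snx7 by 22 PETs in the Sham list alone. A loop missing from a list may lie just below its minimum of 10 PETs. A miRNA gene lay in 0.853% of MCAO and 0.796% of Sham distal anchors, and in 0.860% and 0.728% of anchors of loops with no gene end, so miRNA genes were about as frequent there.

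One-gene-end loops made up more of the mid-range loops in MCAO than in Sham, and loops with no gene end made up less. Their share was 39.9% (39.0 to 40.8) of 11444 mid-range autosomal loops in MCAO, against 34.1% (33.2 to 35.0) of 10680 in Sham. All intervals are exact 95% intervals for counting error only, since PCR copies of 1 molecule may be counted more than once and libraries were not replicated. They also treat loops as independent, though loops can share an anchor, so they may be too narrow. Loops with no gene end were 39.1% in MCAO and 46.9% in Sham, and loops with gene ends in both anchors were 20.9% in MCAO and 18.96% in Sham. The share of one-gene-end loops was higher in MCAO under each of the 7 alternative settings tried for it.

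The direction of the loop number itself depended on the minimum of PETs. As deposited, with at least 10 PETs in each list, the ratio of MCAO to Sham was 1.26 (1.20 to 1.31) for one-gene-end loops, 0.893 for loops with no gene end and 1.18 for loops with gene ends in both anchors. The MCAO library held 1.16 times as many PETs as the Sham library. Per 1000000 library PETs, 10 PETs are 0.286 in Sham, while in MCAO 11 are 0.271 and 12 are 0.296. The MCAO minimum scaled to depth was therefore 12, rounded up to whole PETs and so somewhat stricter than in Sham. Of MCAO members 17.4% had 10 PETs and 31.3% had 10 or 11, and an MCAO minimum of 11 was not tried. With this minimum, called the depth-scaled minimum, 3142 MCAO loops stood against 3641 Sham loops, a ratio of 0.863 (0.822 to 0.905). The ratios for the other classes were then 0.519 with no gene end and 0.839 with gene ends in both anchors. One-gene-end loops were still 42.2% of mid-range loops in MCAO, against 34.1% in Sham. So these lists show a larger share of one-gene-end loops in MCAO and do not settle whether there were more of them. Every excess in loop number below is given as deposited and carries this limit. All 19 autosomes had more members in the MCAO list as deposited, but only 1 did at the depth-scaled minimum.

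**Figure D1:**
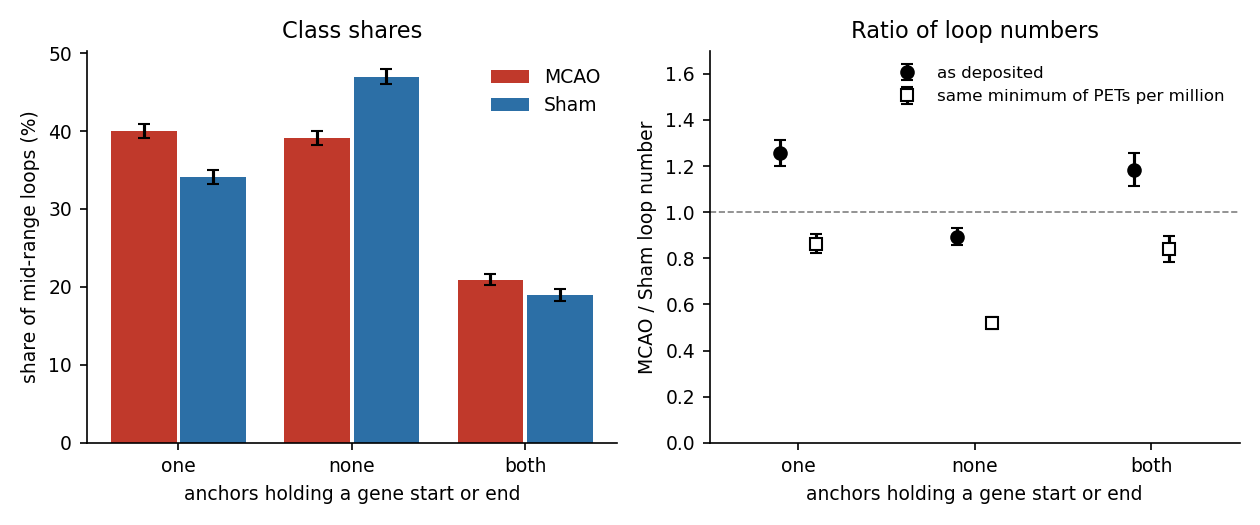
Left, share of mid-range autosomal loops (%) by the number of anchors holding a gene end, MCAO red and Sham blue. Right, ratio of loop numbers, MCAO over Sham, as deposited (filled circles) and at the depth-scaled minimum (open squares); bars are exact 95% counting intervals. The one-gene-end ratio lies above 1 as deposited, 1.26, and below 1 at the depth-scaled minimum, 0.863, while it stays above the 0.519 of loops with no gene end.

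The share was also compared at like gene density. Where the 1 Mb around a loop held 0 to 2 genes, one-gene-end loops were 28.6% of 3111 mid-range loops in MCAO, against 20.3% of 3781 in Sham. With 3 to 5 genes they were 44.8% in MCAO and 42.9% in Sham, and with 6 to 11 genes 48.4% in MCAO and 46.8% in Sham. With 12 or more genes they were 39.3% in MCAO and 34.3% in Sham. The share was higher in MCAO in each of these 4 groups, by most where genes were fewest. At 3 to 5 genes the intervals overlap, 42.8 to 46.8 in MCAO and 40.9 to 45.0 in Sham. They also overlap at 6 to 11 genes, 46.6 to 50.2 in MCAO and 44.8 to 48.7 in Sham. The median anchor was narrower in MCAO, 21.6 kb, than in Sham, 25.4 kb over all members, and the share was higher in MCAO at each of 5 ranges of width. It was 44.9% in MCAO and 41.0% in Sham at 10 to 20 kb, and 36.0% in MCAO and 28.0% in Sham at 20 to 30 kb. The intervals of MCAO and Sham are separate in these ranges. They overlap below 10 kb, at 30 to 50 kb and from 50 kb upward. With all anchors set to 20 kb it was 39.1% in MCAO and 32.7% in Sham.

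As deposited, short members differed most in number. At 100 to 200 kb, 1358 MCAO loops stood against 913 in Sham, a ratio of 1.49 (1.37 to 1.62). At 200 to 300 kb the ratio was 1.38 (1.23 to 1.55), and at 800 to 900 kb, with 198 MCAO and 194 Sham loops, it was 1.02 (0.833 to 1.25). At the depth-scaled minimum these ratios were 0.982, 0.912 and 0.768, with the shortest distances again the highest. Loops with no gene end showed a like decline as deposited, with ratios of 1.14, 1.07 and 0.662 at the same distances, so the decline was not particular to one-gene-end loops. The median distance was 330 kb (319 to 341) in MCAO and 378 kb (361 to 389) in Sham.

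**Figure D2:**
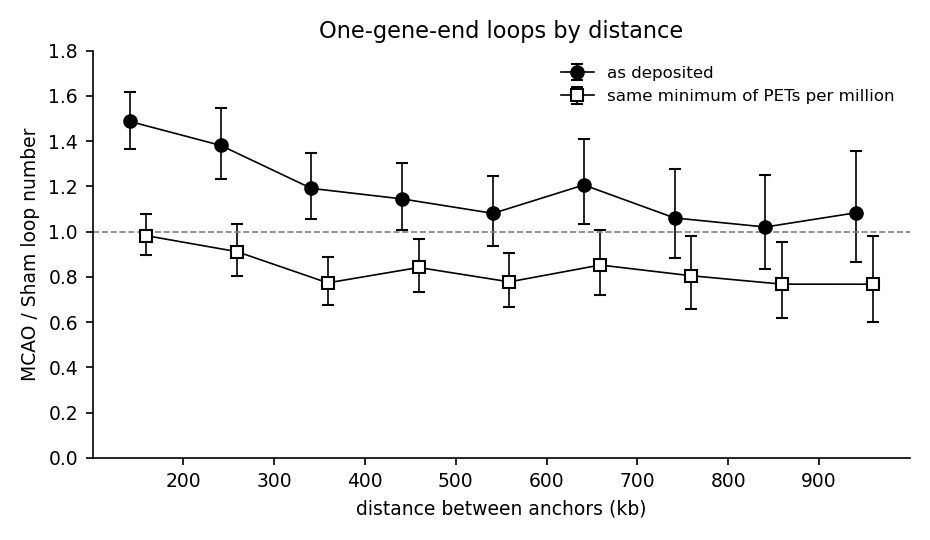
Ratio of the number of one-gene-end loops, MCAO over Sham, against the distance between anchors (kb, bins of 100 kb), as deposited (filled circles) and at the depth-scaled minimum (open squares); bars are exact 95% counting intervals. The ratio is 1.49 as deposited and 0.982 at the depth-scaled minimum in the shortest bin, and lower in the longest bins.

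Most distal anchors lay between genes in both lists. In MCAO 52.8% (51.3 to 54.2) lay between genes, 35.6% in another gene and 11.7% (10.7 to 12.6) in the gene whose end was in the opposite anchor. In Sham 52.0% (50.3 to 53.6) lay between genes, 37.5% in another gene and 10.5% (9.51 to 11.5) in the same gene. As deposited, the intervals of MCAO and Sham overlap for each place. At the depth-scaled minimum 33.7% (32.0 to 35.4) of MCAO and 37.5% (36.0 to 39.1) of Sham distal anchors lay in another gene, which no longer overlap. Loops within the same gene were shortest, with a median of 189 kb in MCAO and 185 kb in Sham, and the length of the gene limits them. Loops to a place between genes were longest, with 386 kb in MCAO and 427 kb in Sham.

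Distal anchors lay in gene bodies more often than other anchors with no gene end. In MCAO 47.2% (45.8 to 48.7) lay in a protein-coding gene, and in Sham 48.0% (46.4 to 49.7) did. Among anchors of loops with no gene end, 38.4% (37.3 to 39.4) lay in a gene in MCAO and 35.2% (34.3 to 36.2) in Sham. Both anchors of each such loop were counted as independent, here and for lncRNA genes, so these intervals may be too narrow. Of autosomal positions with no gene end in a window of the same median width, 35.8% lay in a gene for MCAO and 35.3% for Sham. A distal anchor also held an annotated lncRNA gene in 20.8% of MCAO and 21.7% of Sham loops, against 17.2% and 14.6% of anchors of loops with no gene end. In anchors of 20 to 30 kb the lncRNA shares were 21.9% in MCAO and 20.2% in Sham distal anchors, against 15.6% in MCAO and 13.3% in Sham for anchors of loops with no gene end. In the most common range, 10 to 20 kb, the gap was smaller in MCAO, 18.5% (16.6 to 20.5) against 16.3% (14.9 to 17.7) with overlapping intervals, and in Sham it was 17.6% against 12.7%, with separate intervals. Distal anchors are near a gene by the rule, and the part of this nearness was not tested.

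**Figure D3:**
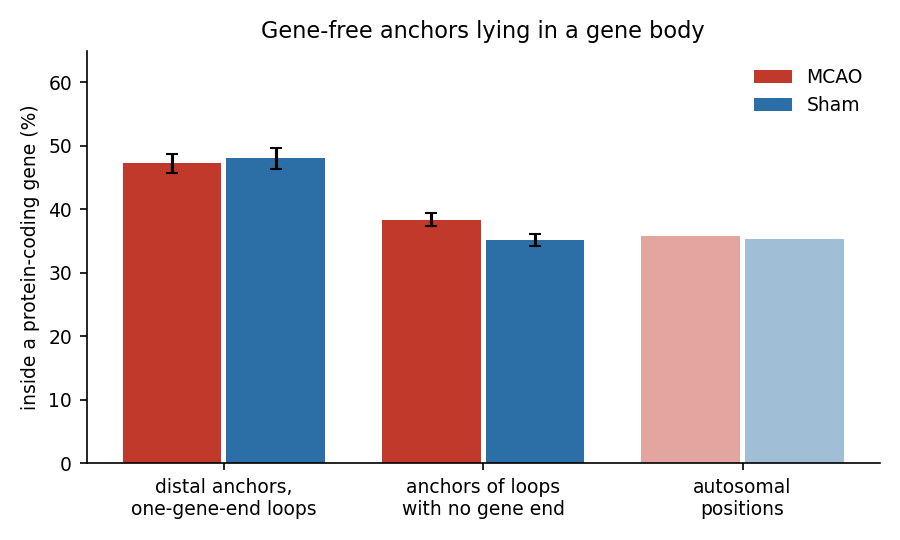
Share of anchors without a gene end that lay in a protein-coding gene (%), MCAO red and Sham blue. Shown are distal anchors of one-gene-end loops, anchors of loops with no gene end, and (pale) autosomal positions with no gene end. Bars on the first 2 pairs are exact 95% counting intervals; the distal anchors stand at 47.2% in MCAO and 48.0% in Sham.

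How often the nearest gene end was that of the contacted gene differed by the place of the distal anchor. For distal anchors inside a gene body this follows largely from the definition of place. Over all members it belonged to a gene of the opposite anchor in 21.5% (20.4 to 22.8) of MCAO and 20.7% (19.4 to 22.1) of Sham loops. Within the same gene the share was 93.2% in MCAO and 92.1% in Sham, and these were 497 of the 985 such loops in MCAO and 352 of 755 in Sham. For distal anchors between genes the shares were 19.8% in MCAO and 20.8% in Sham, and for those within another gene 0.677% in MCAO and 0.732% in Sham. Yet 52.0% of MCAO and 50.9% of Sham members had no whole gene between their anchors. Of gene-end anchors that held the start of a single gene of known strand and not its end, 48.0% of 1453 in MCAO and 49.6% of 1068 in Sham contacted a distal anchor upstream of the gene. A further 19.7% in MCAO and 17.4% in Sham reached into the gene itself.

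Among long genes that looped to themselves, Lrp1b, a lipoprotein receptor gene, had 4 such loops in MCAO and 5 in Sham. Dlg2, which encodes a postsynaptic scaffold, had 3 in each list, and Erbb4, the neuregulin receptor gene of interneurons, had 2 in MCAO and 4 in Sham. The gene-end anchors of the 3 MCAO loops at Dlg2 also held ends of Crebzf, Tmem126a and Tmem126b. So did that of a Sham loop of 49 PETs, so these contacts cannot be assigned to Dlg2 alone. Genes that looped to themselves had a median length of 289 kb, and the minimum distance of 100 kb keeps short genes out of this group. Among genes that held the distal anchors of others, Elmo1, a regulator of cell movement, held 4 in MCAO and 7 in Sham, and Specc1 held 5 in each.

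As deposited, members were found in both lists more often than loops with no gene end. A member counted as found in both lists when its counterpart's 2 anchor midpoints each lay within 1 anchor width of its own. The width was that of the wider anchor of the 2 loops, so a narrow loop could match a wide one several of its own widths away. Such a partner existed for 30.1% (28.7 to 31.4) of MCAO and 37.3% (35.8 to 38.9) of Sham members, against 21.1% and 17.8% of loops with no gene end. At the depth-scaled minimum the order of MCAO and Sham turned, with 36.3% of MCAO and 32.0% of Sham members. Loops with gene ends in both anchors were shared at nearer rates, 28.9% (27.0 to 30.7) in MCAO and 33.7% (31.6 to 35.8) in Sham. The share climbed with PETs, and so did the median anchor width that sets the matching distance, which in MCAO was 15.5 kb at 10 or 11 PETs and 63.6 kb at 30 or more. The part of width was not tested, and chance matches among crowded loops were not measured. Among members of 10 or 11 PETs it was 16.3% in MCAO and 21.0% in Sham, and with 30 or more it was 60.0% in MCAO and 74.3% in Sham. At 20 to 29 PETs it was 55.2% (50.9 to 59.5) of Sham members, against 31.8% (27.8 to 36.1) of Sham loops with no gene end. In MCAO the gap was smaller at those PETs, 43.0% against 37.97%, and the intervals overlap. MCAO intervals also overlap at 12 to 14 PETs and at 30 or more, and are separate at 10 or 11 and at 15 to 19. In Sham they are separate at every range of PETs. Loops with no gene end had fewer PETs, with a median of 12 against 14 for members in each list. The part of this in the shares over all PETs was not tested.

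**Figure D4:**
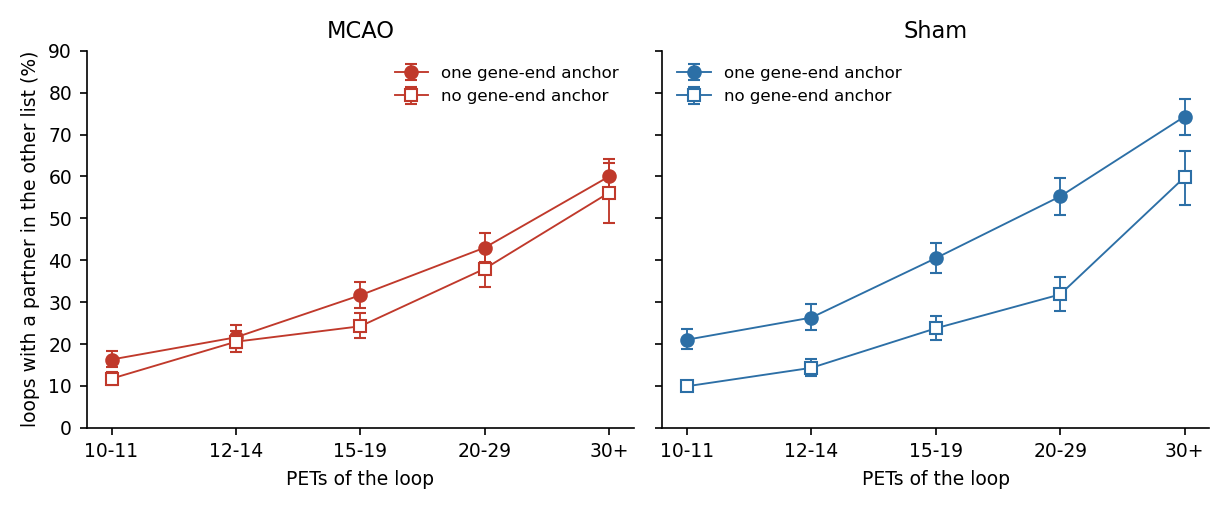
Share of loops with a partner in the other list (%) against the PETs of the loop, MCAO left and Sham right, for one-gene-end loops (filled circles) and loops with no gene end (open squares); bars are exact 95% counting intervals. The share climbs with PETs in both, from 16.3% to 60.0% of one-gene-end loops in MCAO.

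In 943 pairs each loop was the best partner of the other and both had one gene end, and 97.1% of these pairs had a gene in common. Scaled to 1000000 library PETs, MCAO over Sham had a median log2 ratio of -0.15 in these pairs. It was at least 2-fold higher in MCAO in 8.38% and at least 2-fold higher in Sham in 16.4%. Before this scaling the median log2 ratio was 0.07. Anchors of members were wider in Sham, and the minimum per 1000000 library PETs was higher there. The part of either in these pairs was not tested, so the ratios are not comparable as contact strength. The most tagged pair joined Arl14ep and Fshb, the gene of a pituitary hormone subunit, to a place between genes, with 193 PETs in MCAO and 140 in Sham. Gpr37 and Pot1a had 137 PETs in MCAO and 121 in Sham, and Rgma and Chd2 had 130 in MCAO and 88 in Sham. Pdzd8 and Emx2, a gene of cortical patterning, had 199 PETs in MCAO and 60 in Sham, and Htr2a, a serotonin receptor gene, with Esd had 132 in MCAO and 37 in Sham. The first 3 pairs were close in PETs per 1000000, with log2 ratios of 0.25, -0.03 and 0.35, and the last 2 were not, with 1.52 and 1.62. The anchors of Htr2a were 128 and 135 kb wide in MCAO and 58.8 and 78.7 kb in Sham.

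The 5 loops with most PETs in Sham had MCAO partners of fewer PETs and narrower anchors. Zeb2, a transcription factor gene of neuron development, was joined to a distal anchor in Arhgap15 by 27 PETs in the MCAO partner, against 179 in Sham. Ccdc50 was joined to Fgf12 by 44 PETs in the MCAO partner, against 157 in Sham. Map2k6, a kinase gene of the stress-activated p38 pathway, had 15 in MCAO, against 155 in Sham. Rap2b, a small GTPase gene, had 13 PETs in the MCAO partner, against 149 in Sham, and Ccdc172 and Pnlip had 16 in MCAO, against 147 in Sham. In the other direction, Gad2, which encodes a GABA-making enzyme, with Apbb1ip had 152 PETs in MCAO, and its Sham partner had 18. The anchors differed in width as the PETs did. Those of Zeb2 were 49.1 and 61.4 kb wide in MCAO and 164 and 168 kb in Sham, those of Map2k6 6.85 and 8.11 kb in MCAO and 137 and 147 kb in Sham, and those of Gad2 125 and 178 kb in MCAO and 14.3 and 17.5 kb in Sham. PETs were thus summed over unequal areas, and the gaps in PETs are not comparable as contact strength. These loops were picked as the highest of each list, so the gaps to their partners are a description of that choice.

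Of 20665 autosomal protein-coding genes, 5876 (28.4%) lay at the gene end of a member. Of these, 1791 did so in both lists, 2365 in MCAO alone and 1720 in Sham alone. More loops were counted in MCAO for 48.7% of the 5876 genes and fewer for 35.2%. At least 3 more were counted in MCAO for 129 genes, 2.2%, and at least 3 more in Sham for 48 genes, 0.817%. At the depth-scaled minimum these counts were 57 genes with more in MCAO and 64 with more in Sham, so the excess of genes in MCAO was lost. Genes with a loop were long, with a median of 35.3 kb against 17.5 kb for all autosomal genes.

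Plk2, a kinase gene induced by neuronal activity, contacted 8 distal anchors in MCAO and 5 in Sham, all between genes and all downstream of it. The MCAO loops spanned 120, 158, 220, 276, 486, 572, 723 and 844 kb with 20, 22, 25, 11, 12, 18, 15 and 18 PETs. The Sham loops spanned 132, 180, 223, 571 and 855 kb with 19, 10, 15, 24 and 11 PETs. Of the 8 MCAO loops, 5 had a Sham partner. Kcnq5, which encodes a neuronal potassium channel, had 6 loops in MCAO and 7 in Sham, of which 3 in each list stayed within the gene. Myc, a growth regulator, had 8 in MCAO and 4 in Sham, all between genes, and Spry2, an inhibitor of growth factor signalling, had 7 in MCAO and 5 in Sham, also all between genes. Tsc22d1 had 6 in MCAO and 5 in Sham, as did the transcription factor gene Tcf4, and Arl14ep had 5 in MCAO and 4 in Sham. Foxc1, a transcription factor gene of blood vessels and meninges, had 5 in MCAO and 6 in Sham, and Adamts9 had 4 in MCAO and 5 in Sham. Alcam, described below, was also among the 10 genes with most loops, with 3 in MCAO and 7 in Sham. At these genes the numbers in MCAO and Sham were close apart from Plk2, Myc and Alcam.

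Sema6d, which encodes a semaphorin that guides axons, had 5 members in MCAO and none in Sham. They spanned 280, 531, 605, 783 and 827 kb with 11, 15, 20, 13 and 56 PETs. The longest had a Sham partner of 11 PETs, which was not counted at Sema6d. Hs3st3b1, a heparan sulfate sulfotransferase gene, had 5 in MCAO with 17, 10, 25, 10 and 21 PETs and none in Sham, and no MCAO loop had a Sham partner. Negr1, a neuronal adhesion gene, had 5 in MCAO with 11, 11, 11, 36 and 11 PETs and none in Sham. The difference at the depth-scaled minimum was 4 at Sema6d, 3 at Hs3st3b1 and 1 at Negr1.

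Ncam1, a neural cell adhesion gene, had 7 in MCAO and 2 in Sham, and Mmp17, a membrane metalloproteinase gene, had 6 in MCAO and 1 in Sham. Arpp21, a neuronal phosphoprotein gene, had 4 in MCAO and none in Sham. Its strongest MCAO loop, 112 PETs, had a Sham partner of 82 PETs that was not counted at Arpp21, so the count of 0 does not mean that the contact was missing. Xirp2 and Sorcs2 also had 4 in MCAO and none in Sham, and none of these loops had a Sham partner. Spata5 had 4 in MCAO and none in Sham, but 2 of its loops, of 40 and 33 PETs, had Sham partners of 78 and 19 PETs that were not counted there. Its difference was 0 with a single gene per anchor and 0 with 20 kb anchors. At Mmp17, the MCAO loop of 31 PETs had an uncounted Sham partner of 47. Kctd16, a potassium channel tetramerization domain gene, had 7 in MCAO and 2 in Sham, and 3 of the 7 had a Sham partner. With the depth-scaled minimum the difference was 4 at Arpp21 and Sorcs2 and 3 at Ncam1, Mmp17, Xirp2, Spata5 and Kctd16.

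B3galt2, a galactosyltransferase gene, had 2 members in MCAO and 7 in Sham, all between genes and upstream of it. The MCAO loops had 20 and 17 PETs, and the Sham loops had 10, 11, 10, 11, 19, 17 and 13. With at least 15 PETs the numbers were equal, since most Sham loops were near the minimum. Alcam, an adhesion gene, had 3 in MCAO with 10, 16 and 12 PETs, against 7 in Sham with 21, 11, 12, 11, 23, 35 and 71. The Sham loop of 71 PETs, shared with Cblb, had an MCAO partner of 53 PETs that was not counted at Alcam, and the difference was -1 with 20 kb anchors. Fam13a had 1 in MCAO and 5 in Sham. Auts2, a neurodevelopmental gene, and Zranb2 had none in MCAO and 4 each in Sham. The 4 Zranb2 loops ended within Negr1, the neighbour that had loops in MCAO alone. Cd36, Exoc5, Rnf13, Pnpla8 and Pcdh20 had none in MCAO and 3 each in Sham. MCAO partners not counted at these genes existed for 2 Sham loops at Cd36, Exoc5 and Pnpla8 and for 1 at Rnf13 and Pcdh20, and the Pcdh20 pair had 73 PETs in MCAO and 50 in Sham. The difference was 0 at Exoc5 without widening, 0 at Rnf13 with a single gene per anchor and 0 at Cd36 with 20 kb anchors.

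**Figure D5:**
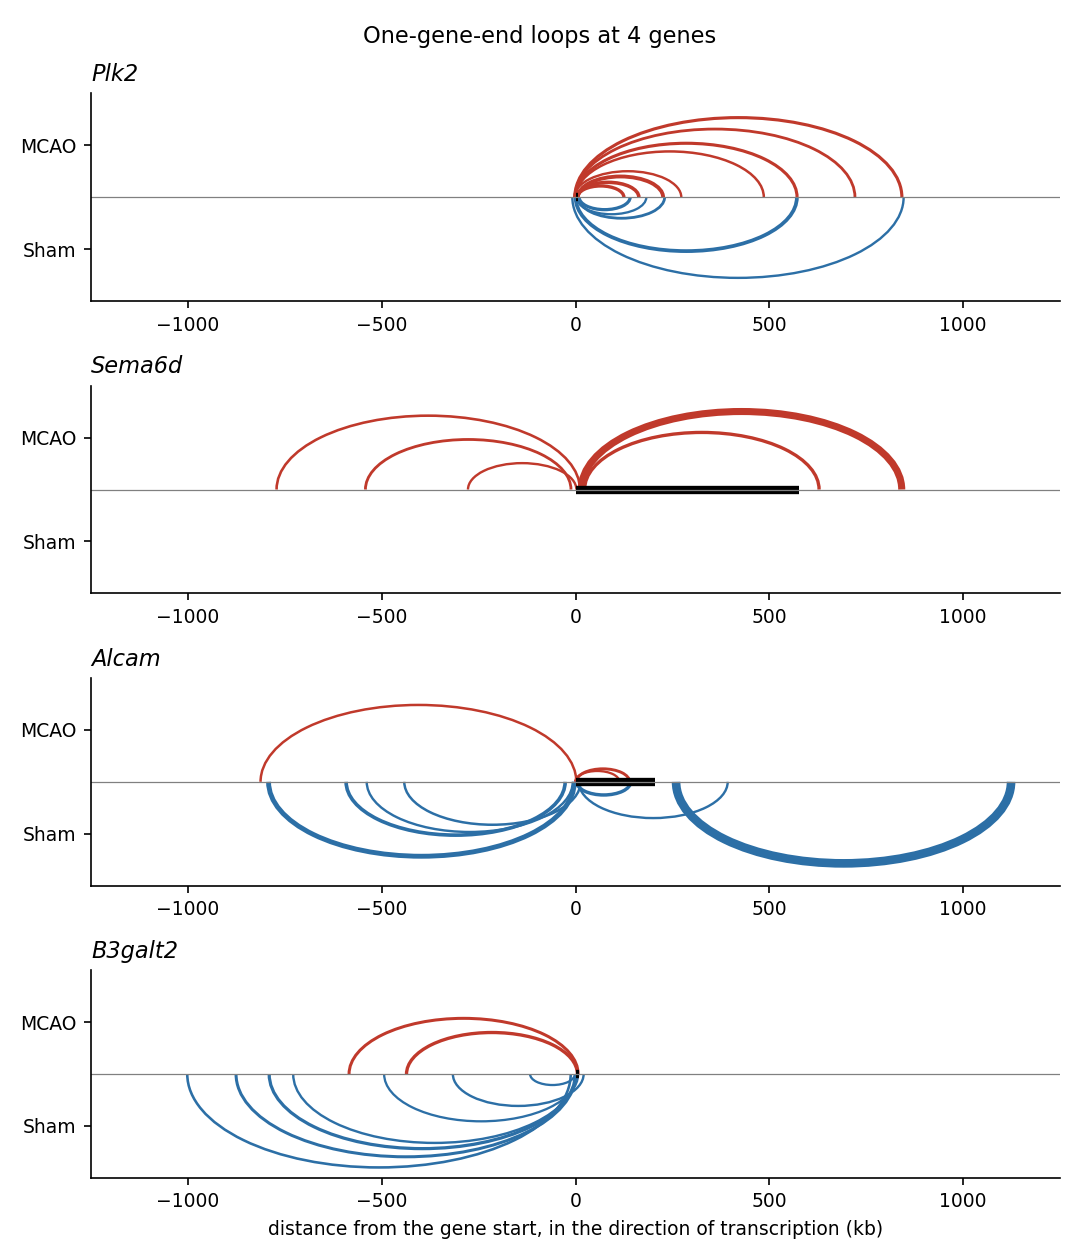
Arcs join the midpoints of the gene-end and distal anchors of each one-gene-end loop at Plk2, Sema6d, Alcam and B3galt2, against distance from the gene start in the direction of transcription (kb), MCAO above the line and Sham below. Line width grows with PETs and black bars are the genes. Plk2 has 8 arcs in MCAO and 5 in Sham, Sema6d 5 and 0, Alcam 3 and 7, and B3galt2 2 and 7.

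Gene lists differed widely in how many genes had a member, against 28.4% of all autosomal genes. Of 28 axon guidance genes 26 had one, with 43 gene-loop pairs in MCAO and 29 in Sham, and more loops in MCAO for 14 genes and fewer for 6. Efnb2, an ephrin gene, had 5 in MCAO and 3 in Sham, and Nrp1, a semaphorin receptor gene, had 3 in each. Of 24 synaptic and adhesion genes 19 had a loop, with 33 pairs in MCAO and 27 in Sham, and Nlgn1, a postsynaptic adhesion gene, had 5 in MCAO and 3 in Sham. Of 33 developmental transcription factor genes 26 had a loop, with 58 pairs in MCAO and 52 in Sham. These lists hold many long or isolated genes, and the part of gene length was not tested.

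Of 23 glutamate receptor genes 16 had a loop, with 26 pairs in MCAO and 22 in Sham. Gria2, an AMPA receptor subunit gene, had 4 in MCAO and 1 in Sham, and Grm3, a metabotropic receptor gene, had 2 in MCAO and 5 in Sham. Of 25 immediate early genes 10 had a loop, with 17 pairs in each list. Jun, a component of AP-1, had 5 in MCAO and 2 in Sham, Egr2 had 4 in MCAO and 2 in Sham, Klf4 had 3 in each and Nr4a2 had 1 in MCAO and 3 in Sham. Both Sham loops of Jun had MCAO partners, at 105 kb with 17 PETs in MCAO and 15 in Sham, and at 812 kb in MCAO with 23 PETs and 811 kb in Sham with 25. Hypoxia response and inflammatory mediator genes had 7 pairs in each list.

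Among cell type lists, 4 of 14 astrocyte genes, 28.6%, had a loop, near the 28.4% of all autosomal genes. As deposited, they had 14 pairs in MCAO and 6 in Sham. Sox9 had 4 in MCAO and 2 in Sham, Glul 4 and 1, Gja1 3 and 2, and Slc1a3 3 and 1. Pairs of these lists at the depth-scaled minimum are not given here. Excitatory neuron genes had 14 pairs in MCAO and 8 in Sham, inhibitory neuron genes 14 and 15, oligodendrocyte genes 6 and 7, microglia genes 5 and 2, and endothelial and mural genes 13 and 8. The cell death list had 9 and 6, the heat shock list 4 and 3, and the chromatin architecture list 3 and 2. Of 15 housekeeping genes 3 had a loop, with 1 pair in MCAO and 3 in Sham. The log2 ratio of pairs was 0.32 over all genes, and it was higher than that in 8 of the 17 lists.

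Most merged distal regions were reached by a single gene-end anchor, which may hold more than 1 gene. Overlapping distal anchors of both lists merged into 5988 regions, of which 84.2% were reached by 1 gene-end anchor, 743 by 2 and 203 by 3 or more. The region reached by most gene-end anchors, 6, lay in Diaph1 and was joined to the clustered protocadherin genes, which encode adhesion proteins of neurons, by 2 loops in MCAO and 5 in Sham. A region between genes at chr19:33310753-33451731 was reached from 5 gene-end anchors, which held Minpp1, the lipase genes Lipk, Lipo1, Lipo2 and Lipo3, Stambpl1 and Acta2, the smooth muscle actin gene, by 3 loops in MCAO and 4 in Sham. A region at chr10:122505749-122584485 was reached from 5 anchors holding Ppm1h, Mon2, Rxylt1 and D930020B18Rik, by 5 loops in MCAO and 1 in Sham. A region at chr16:37669464-37715161 was reached from 5 anchors at Gsk3b, a kinase gene, Stxbp5l and others, by 4 loops in MCAO and 2 in Sham.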

How the data were processed

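Hi-C contacts were measured in 1 library per group, MCAO and Sham, taken from the sample titles. HiC-Pro and Bowtie2 were used with mm10, per the submitters' processing notes. For the loop caller, a name is not given in the sources used here. Counts of PETs and anchor reads are whole numbers deposited by the authors without scaling. The signal called density, deposited by the authors, is PETs per kb of anchor per 1000000 library PETs, from which library totals were recovered, with a ratio of 1.16. The enrichment ratio and the p-values are the authors' deposited values and were used at most to rank loops within a list. Other columns, such as the distance, were used as the authors deposited them. Both lists hold loops of at least 10 PETs with an FDR of at most 0.05.

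Gene positions came from RefSeq GRCm38.p6 (20665 autosomal protein-coding genes); strand was known for 79.6% of them through the promoter table. Anchors with no gene end were placed in the same gene, another gene or between genes. Shares have exact Clopper-Pearson intervals, ratios exact binomial intervals and medians order-statistic intervals. With 1 library per group no p-value was computed. Named genes are the 10 with most loops, the 10 with the largest difference each way, those at the loops and shared pairs with most PETs, at the 5 most contacted distal regions, and, from the 17 lists, genes among the 4 with most loops; promoters and miRNAs shown were chosen after their values were seen. A few genes and 1 region chosen this way are not reported here. The members and lists were chosen with earlier results of these data known. Placement and matching were checked on simulated loops. The loops simulated for matching were set far apart, so chance matches among crowded loops were not measured. Python 3.11.15, pandas 2.3.3, numpy 2.4.6 and scipy 1.17.1 were used. Alternatives changed the window at gene ends, the minimum of PETs, the p-value, the number of genes per anchor and the matching rule; anchors of 20 kb were added after seeing the data.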

Additional observations from a re-analysis of the deposited data

How the results depend on the processing

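Of 116 values recomputed under alternatives, 57 stayed within the main 95% interval or, for counts of genes and lists, within 1.5 times, and 58 moved further. The ratio of loop numbers reversed, to 0.863, at the depth-scaled minimum, which raises the MCAO minimum to 12 PETs after rounding up to whole PETs. At that minimum the order of MCAO and Sham in the share found in both lists also turned. The cause of the other shifts was not tested. Shares of place and of nearest genes moved by a few percentage points. Without widening the values were share of mid-range loops 38.6% in MCAO and 32.9% in Sham, nearest-gene share 20.1% in MCAO and 18.9% in Sham, same-gene share 9.41% in Sham. With a 10 kb window the values were same-gene share 12.8% in MCAO and 11.9% in Sham, nearest-gene share 24.4% in MCAO and 24.1% in Sham, share of mid-range loops 35.2% in Sham, shared in both lists 35.6% in Sham. With at least 15 PETs the values were loop ratio 1.33, share of mid-range loops 44.6% in MCAO and 39.4% in Sham, between-genes share 54.9% in MCAO and 56.1% in Sham, median kb 374 in MCAO and 431 in Sham, shared in both lists 40.1% in Sham, nearest-gene share 22.7% in Sham, genes with 3 more in MCAO 38, genes with 3 more in Sham 13, lists above all genes 5. At the depth-scaled minimum the values were loop ratio 0.863, share of mid-range loops 42.2% in MCAO, shared in both lists 36.3% in MCAO and 32% in Sham, median kb 348 in MCAO, genes with 3 more in MCAO 57. On the better side of the median p-value the values were share of mid-range loops 44.5% in MCAO and 39.7% in Sham, same-gene share 14.4% in MCAO and 13.1% in Sham, shared in both lists 35.8% in MCAO and 43.3% in Sham, median kb 264 in MCAO and 303 in Sham, nearest-gene share 23.5% in MCAO and 22.9% in Sham, between-genes share 54.1% in Sham, genes with 3 more in MCAO 36, genes with 3 more in Sham 14. With a single gene per anchor the values were share of mid-range loops 30.7% in MCAO and 26% in Sham, same-gene share 12.8% in MCAO, nearest-gene share 24.4% in MCAO and 22.8% in Sham, between-genes share 53.7% in Sham, genes with 3 more in Sham 28. With 20 kb anchors the values were between-genes share 50.3% in MCAO and 48.5% in Sham, median kb 316 in MCAO and 348 in Sham, share of mid-range loops 32.7% in Sham, nearest-gene share 18.7% in Sham. With overlapping anchors as the match the values were shared in both lists 26.8% in MCAO and 33.9% in Sham. With a match within 0.5 anchor width the values were shared in both lists 21.6% in MCAO and 27.7% in Sham. Of 140 differences at named genes, 95 kept their direction at 3 or more loops, 43 fell below 3, and 2 reversed. The difference at Kctd16 was -1 on the better side of the median p-value, and that at Pcdh20 was 1 with 20 kb anchors, an alternative added after seeing the data. No paired analysis was possible because each group has 1 library. Loops near 10 PETs are the least certain, and a loop missing from a list may lie just below that minimum.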
